A study of Homo sapiens with 12 samples.

Results

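JAG1 encodes Jagged1, a ligand of the Notch receptors that sits in the membrane of the sending cell. It is 1 of 770 genes counted in HCT-116 cells, an established human line of epithelial colorectal carcinoma, and it was chosen by its symbol from the 3 tables of group values, with its response to heteronemin already known. Its own levels are therefore given as a description, without a test, and set against genes of similar level in untreated cells. The 12 samples form 4 groups of 3: cells given heteronemin, a sesterterpenoid from a marine sponge, cells given tetrac, a deaminated analogue of thyroxine, cells given both, called the combination here, and Control cells. Treatment lasted 24 h; the sources used here state neither the doses nor what Control cells received. They also leave unstated whether samples with the same label are separate cultures. The study's title asks about signalling through the EGF receptor.

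Notch signalling passes between touching cells. A ligand of the Jagged or Delta-like family on one cell binds a Notch receptor on the next, ADAM proteases and then gamma-secretase cut the receptor, and the freed intracellular part enters the nucleus. There it joins the DNA-binding protein RBPJ and recruits coactivators such as CREBBP and EP300. In the intestine the pathway holds crypt progenitors in the undifferentiated state and steers them towards the absorptive lineage. In colorectal cancer cells JAG1 is known as a target of beta-catenin, which links it to the Wnt pathway.

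The measurements came from NanoString nCounter, which counts barcoded probes hybridised to transcripts without amplification. Each value is the authors' normalized signal for a group, a single figure over its 3 samples, and 33 is the lowest value of any gene, taken as the floor. Without values per sample, no SD or interval can be attached, and the depth is unknown. The authors' p-values have 2 decimals, and one printed as 0 stands for anything below 0.005.

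The JAG1 promoter is shown because the ratios below are changes in the amount of its transcript. RefSeq places it at chr20:10674000-10674249 on the minus strand of GRCh38.p14, and the 250 bases before the start of the gene read 5′ to 3′ as follows, with each CG dinucleotide, the site of DNA methylation, in capitals.
JAG1: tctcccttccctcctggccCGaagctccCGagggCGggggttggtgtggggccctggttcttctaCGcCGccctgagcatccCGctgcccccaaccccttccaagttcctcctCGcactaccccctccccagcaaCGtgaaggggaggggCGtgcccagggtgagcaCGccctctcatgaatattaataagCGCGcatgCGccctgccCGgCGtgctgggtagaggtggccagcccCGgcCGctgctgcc

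This stretch holds 17 CG dinucleotides, against a median of 11 over 35116 promoters of the same length, of which 93.9% hold at least 1. Short motifs of known factors were also searched on both strands. The core of the RBPJ motif, TGGGAA, had 0 matches, and 20.8% of all promoters hold it. The SMAD motif CAGAC had 0 matches against a share of 38.0%, the E-box CANNTG had 0 against 61.8%, and the AP-1 motif TGANTCA had 0 against 6.57%. These letters are absent from this window, which says nothing about which factors bind the gene.

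JAG1 was lowest where heteronemin was present. Its signal was 318.72 with heteronemin, 650.92 with tetrac and 331.56 with both, against 782.33 in Control cells. All 4 values lay far above the floor, at 9.66, 19.7, 10.05 and 23.7 times it in the same order. The 2 groups that received heteronemin thus sat close together and the other 2 well above them. As a share of the Control value, JAG1 stood at 40.7% with heteronemin, 83.2% with tetrac and 42.4% with both.

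**Figure D1:**
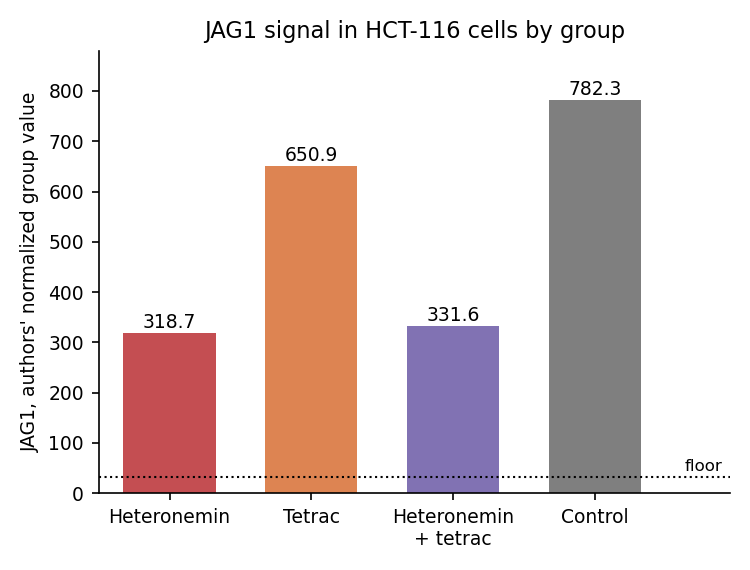
Bars give the authors' normalized group value of JAG1 (linear axis from 0) in each of the 4 groups, 1 value per group over 3 samples, with no error bars because the tables hold none; the dotted line is the floor of 33. JAG1 was at 318.7 and 331.6 in the groups given heteronemin, against 650.9 after tetrac and 782.3 in Control.

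Heteronemin was set against Control to see which panel genes it changed. JAG1 was 59.3% lower, a log2 ratio of -1.30 or 2.45-fold, and this was the lowest ratio of all 770 genes. The 279 genes at the floor in Control could not fall. JAG1 was also the lowest of the 343 genes with a Control value of 100 or more. In the authors' deposited table its p is printed as 0, as it is for 41 genes in all. By signal, JAG1 ranked 187th from the top after heteronemin, against 95th in Control.

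Genes of the same abundance mostly went down a little, and JAG1 went far past them. The comparison took the 50 genes nearest in Control signal, 25 on either side, from 632 (STAT3) to 1079 (RAC1). After heteronemin their median log2 ratio was -0.33, with a quartile range from -0.40 to -0.16, and 42 of the 50 were below 0; divided by the panel sum, their median was -0.07 and 31 were below 0. JAG1 lay 0.97 below that median, or 1.96-fold, and 0 of the 50 were lower. By the authors' p, 21 of the 50 were lower and 1 was higher. The share of all tested genes called lower was 15.9%, and among genes with a Control value of 100 or more 30.6% were called lower and 7.29% higher, so lower values were common at this level.

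The genes nearest to JAG1 in Control signal show the contrast. The splicing factor subunit SF3A3, at 683.19 after heteronemin against 789.61 in Control, had a log2 ratio of -0.21. The lipid transfer protein gene VPS13A had one of -0.36 and the sheddase gene ADAM9 of -0.48. At the low end of the 50 stood ID2, an inhibitor of differentiation, at -1.12, the caveolar coat gene CAV1 at -1.03 and the epithelial sodium channel subunit SCNN1A at -0.80. At the high end stood NDRG1, a gene of hypoxia and differentiation, at 0.59, the stress cytokine GDF15 at 0.58 and the calcium-binding protein gene CIB1 at 0.09. GDF15 and CIB1 had p = 0.06 and 0.48 in the authors' deposited table and were not called.

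Tetrac alone left JAG1 much nearer to Control. The log2 ratio was -0.27, or 16.8% lower, with p = 0.17 in the authors' deposited table, so it did not pass. Over all 770 genes the tetrac ratios were narrow, and 12 genes besides JAG1 were as low or lower. The 10 lowest of them ran from the kinase gene SYK at -0.36 to the tetraspanin gene TSPAN1 at -0.28, and in between came SAP130, SLC35A3, CTNND1, MAPK3, GALNT7, FN1, CTSH and EPHA2. SAP130 is one of the panel's housekeeping genes, and SYK and FN1 lay near the floor after tetrac, at 41.59 and 38.13. Of these 10, MAPK3, which encodes ERK1, was the one called, with p = 0.04 in the authors' deposited table. Outside these 10, SLC2A1 was also lower than JAG1, at -0.274 against -0.265. It was called as well, with p = 0.04 in the authors' deposited table.

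Among the 50 genes of similar level, the median after tetrac was -0.13 and 47 were below 0; divided by the panel sum, the median was -0.01 and 30 were below 0. JAG1 lay 0.13 below that median and 0 of the 50 were lower, but the next genes were close: NDRG1 at -0.26, ADAM9 at -0.25 and CAV1 at -0.25. The highest were SCNN1A at 0.29, the chromatin kinase gene TLK2 at 0.02 and the Notch mediator RBPJ at 0.01. By the authors' p, 0 of the 50 were called in either direction, where 0.98% of tested genes were called lower, or 2.04% with a Control value of 100 or more; 0.292% of genes at that level were called higher. Divided by the panel sum, the JAG1 ratio after tetrac was -0.14. NDRG1 and JAG1 had nearly equal ratios after tetrac, and opposite signs after heteronemin.

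The combination resembled heteronemin alone for this gene. The log2 ratio to Control was -1.24, or 57.6% lower, and 2 genes were lower still: the bone morphogenetic protein BMP4 at -1.32 and ID2 at -1.25. JAG1 also ranked 3 from the lowest among the 343 genes with a Control value of 100 or more. In the authors' deposited table p is again printed as 0. JAG1 ranked 187th from the top by signal, as after heteronemin.

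Genes of similar level had a median log2 ratio of -0.20 after the combination, with 39 of 50 below 0; divided by the panel sum, the median was -0.03 and 29 were below 0. JAG1 lay 1.04 below the median, and 1 of the 50, ID2, was lower. Next came CAV1 at -0.93 and the osmotic stress factor NFAT5 at -0.74. The highest were GDF15 at 0.98, NDRG1 at 0.95 and the tight junction gene CLDN7 at 0.39. The authors' p called 11 of the 50 lower and 3 higher, where 14.1% of all tested genes were called lower. Among genes with a Control value of 100 or more, 26.5% were called lower and 9.33% higher.

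**Figure D2:**
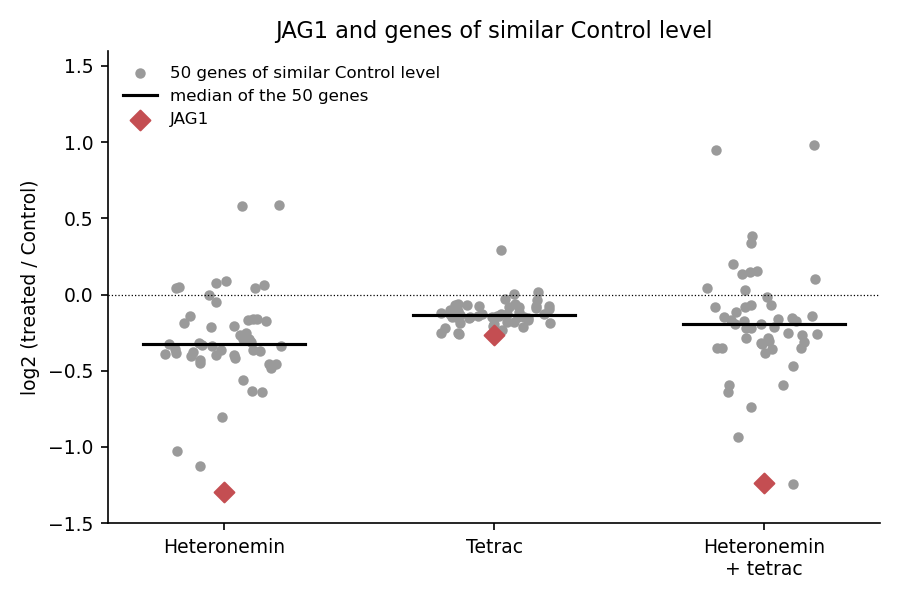
Points give log2 of the treated over the Control group value for the 50 genes nearest to JAG1 in Control level, in each of the 3 comparisons; the black line is their median and the diamond is JAG1. JAG1 lies 0.97 below the median after heteronemin, 0.13 below it after tetrac and 1.04 below it after the combination.

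The 2 groups with heteronemin were then compared directly, which asks what tetrac added. JAG1 was at 331.56 in the combination, against 318.72 after heteronemin, a log2 ratio of 0.06 that turned to -0.03 when each group was divided by its panel sum. Against tetrac alone the combination was 1.96-fold lower, a log2 ratio of -0.97, and heteronemin alone was 2.04-fold lower than tetrac, a log2 ratio of -1.03. The tables hold no p for these pairs, so none of these differences was tested. The authors' values order the groups as heteronemin, combination, tetrac and Control, from low to high, and the spread behind neighbouring places in that order is unknown.

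If the log2 ratios of the single agents added up, the combination would sit at -1.56, a signal of 265.2. The measured ratio was 0.32 above that sum. The 50 genes of similar level were 0.23 above their own sums at the median and ranged from -0.08 to 0.62, with JAG1 at percentile 70.0 among them. Both single ratios and the combination share the Control value, so this arithmetic counts it more than once. Divided by the panel sum, the JAG1 figure was 0.12.

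**Figure D3:**
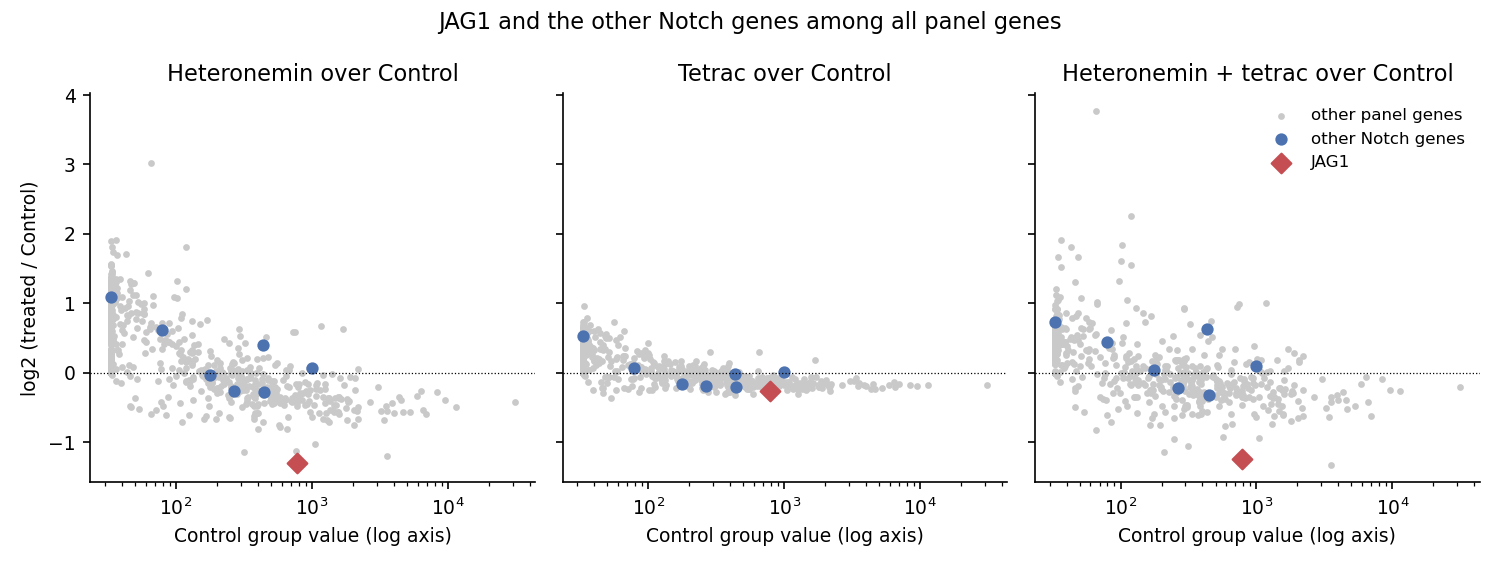
Each point is 1 of 770 panel genes, with its Control group value on a log axis and log2 of the treated over the Control value on the vertical axis, in 3 panels for heteronemin, tetrac and the combination. JAG1 (diamond, Control value 782.3) has the lowest ratio of the panel after heteronemin at -1.30 and the third lowest after the combination at -1.24; the other 7 measured Notch genes lie between -0.32 and 1.09.

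Of 58 listed Notch pathway genes the panel tables held 8, so most of the pathway, its HES and HEY target genes included, was not analysed here. The lowest log2 ratio among the 7 measured besides JAG1 was -0.32, that of CREBBP after the combination, and no difference from JAG1 was tested. By the authors' p, JAG1 and CREBBP were lower and ADAM17 was higher both after heteronemin and after the combination, while 0 of the 8 were called after tetrac. Calls in the lower direction covered 15.9% of tested genes with heteronemin, 0.98% with tetrac and 14.1% with both, or 30.6%, 2.04% and 26.5% of genes with a Control value of 100 or more, as JAG1 and CREBBP have. Calls in the higher direction covered 11.2% of tested genes with heteronemin, 0.28% with tetrac and 8.16% with both. Counts this small can be read only gene by gene. The median log2 ratio of the 7 other genes was 0.08 with heteronemin, -0.01 with tetrac and 0.10 with both, and over all panel genes it was 0.11, 0.02 and 0.09. The panel medians include 279 genes at the floor in Control, which could not fall. Over genes with a Control value of 100 or more, as all 7 but DLL4 and EGFL7 have, the median was -0.21, -0.11 and -0.16. At the median the 7 genes lay above genes of that level, but this includes DLL4 and EGFL7, whose ratios were above 0 throughout. Without them the middle ratio was that of NOTCH1, at -0.03 with heteronemin, -0.15 with tetrac and 0.05 with both. That is above genes of that level with heteronemin and with both, and below them with tetrac. These differences were not tested.

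Among ligands, DLL4, the Delta-like ligand best known from sprouting vessels, was the other one measured. Its signal was 70.01 with heteronemin, 47.67 with tetrac and 54.92 with both, against the floor of 33 in Control. These values lie near the floor and none was called, with p = 0.06, 0.42 and 0.15 in the authors' deposited table. The receptor gene NOTCH1 was at 172.87, 158.93 and 182.71 in the same order, against 176.88 in Control, and was not called in any comparison. Its log2 ratios were -0.03, -0.15 and 0.05, and 0.22, -0.03 and 0.21 when divided by the panel sum, so its sign depended on the scale.

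ADAM17 encodes a membrane protease that cuts many surface proteins and can cut Notch receptors. It stood at 571.14 with heteronemin, 430.65 with tetrac and 671.89 with both, against 433.92 in Control. It rose by a log2 ratio of 0.40 after heteronemin and of 0.63 after the combination, with p printed as 0 and 0.01 in the authors' deposited table. After tetrac its ratio was -0.01 and it was not called. The ligand and this protease therefore had opposite signs in both comparisons with heteronemin.

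In the nucleus, RBPJ was not called, at 1053.52, 1003.54 and 1071.38 after heteronemin, tetrac and the combination, against 999.91 in Control. Its ratios of 0.08, 0.01 and 0.10 became 0.33, 0.13 and 0.26 relative to the panel sum. The acetyltransferase gene CREBBP was at 365.64, 385.78 and 355.02 in that order, against 443.61 in Control. After heteronemin it fell by 0.28 and after the combination by 0.32 (log2), or by 0.03 and 0.16 relative to the panel sum, and its p is 0.01 in the authors' deposited table both times. The related gene EP300 had similar ratios of -0.26, -0.20 and -0.21, or -0.0044, -0.08 and -0.05 relative to the panel sum, and was not called. EGFL7, a secreted protein described as a Notch antagonist, was at 120.58, 83.05 and 106.79 after the same treatments, against 78.84 in Control. It was not called, and its p after the combination is printed as 0.05 in the authors' deposited table.

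**Figure D4:**
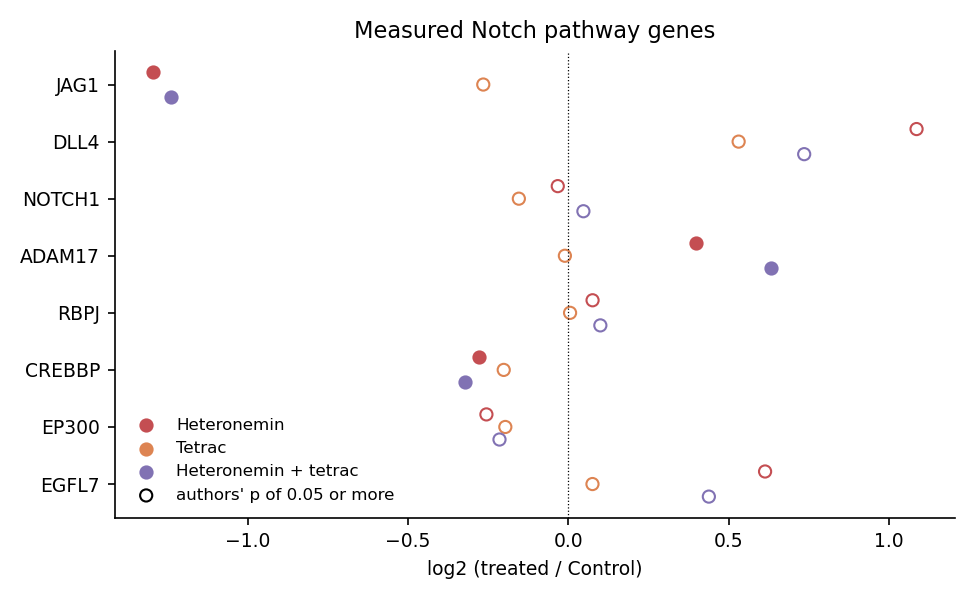
Log2 of the treated over the Control group value for the 8 measured Notch pathway genes, with heteronemin, tetrac and the combination in separate colours; filled circles passed the authors' unadjusted p under 0.05 and open circles did not. JAG1 stands apart at the left at -1.30 and -1.24 with heteronemin, while ADAM17 lies at 0.40 and 0.63 and DLL4, at the floor in Control, between 0.53 and 1.09.

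Pathways known to raise JAG1 transcription were listed as well: Wnt, TGF-beta and NF-kappaB. Of 16 listed genes 8 were measured. By the authors' p, 3 were lower with heteronemin, 0 with tetrac and 4 with both, and 0 were higher in any of the 3 comparisons. The shares of all tested genes called lower were 15.9%, 0.98% and 14.1%, and of those with a Control value of 100 or more 30.6%, 2.04% and 26.5%. The list's median log2 ratio was -0.20, -0.12 and -0.21 in that order, against -0.21, -0.11 and -0.16 over genes with a Control value of 100 or more. In its medians the list thus sat near other genes of moderate or high signal, though its lowest Control value was 35.98, near the floor. All 8 were below 0 after heteronemin and after the combination, and 6 after tetrac. Whether its calls were more frequent than those shares was not tested.

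CTNNB1, which encodes beta-catenin, had a signal of 2230.51 with heteronemin, 2985.43 with tetrac and 2281.44 with both, against 3252.93 in Control. It fell by 0.54 after heteronemin and by 0.51 after the combination on the log2 scale, both with p = 0.03 in the authors' deposited table. The TGF-beta receptor gene TGFBR2 fell by 0.37 and by 0.27 in the same 2 comparisons. SMAD4, the shared mediator of TGF-beta and BMP signals, fell by 0.19 after heteronemin, with p = 0.04 in the authors' deposited table. After the combination the ligand gene TGFB1 fell by 0.39 and the mediator gene SMAD2 fell by 0.38. Divided by the panel sum, the ratios were smaller in size. CTNNB1 was then at -0.29 after heteronemin and -0.35 after the combination, TGFBR2 at -0.12 and -0.11, and SMAD4 turned to 0.06 after heteronemin. After the combination TGFB1 was at -0.22 and SMAD2 at -0.22. On either scale each of these ratios was closer to 0 than that of JAG1.

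Genes whose pattern over the 4 groups was most like that of JAG1 were found by the distance between their 3 log2 ratios, among the 342 other genes with a Control value of 100 or more. The nearest were BMP4 at a distance of 0.17, the lysosomal protease gene CTSH at 0.24, ID2 at 0.25, CAV1 at 0.41 and the actin-severing protein gene GSN at 0.65. The next, MAPK3, was at 0.69, so the fifth place is not sharply set. Distances are in log2 units over 3 ratios that share the Control value, and they carry no p.

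All 5 were markedly lower with heteronemin and closer to Control with tetrac alone. This follows from their choice by ratios like those of JAG1 and is not a separate result. BMP4 had a signal of 1549.75 with heteronemin, 3219.43 with tetrac and 1422.97 with both, against 3561.38 in Control. CTSH was at 142.49, 260.44 and 152.24 in that order, against 315.53 in Control. ID2, a known target of BMP signals, was at 351.64, 722.79 and 323.24, against 766.24 in Control. CAV1 was at 514.13, 881.89 and 549.44, against 1048.29 in Control, and GSN was at 340.46, 525.14 and 300.16, against 570.27 in Control. As a share of Control they kept 43.5% to 59.7% after heteronemin, 82.5% to 94.3% after tetrac and 40.0% to 52.6% after the combination. On the authors' scale JAG1, CTSH and CAV1 had slightly higher values in the combination than after heteronemin alone, and BMP4, ID2 and GSN slightly lower ones; these differences were not tested, and that of JAG1 changed sign when divided by the panel sum.

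**Figure D5:**
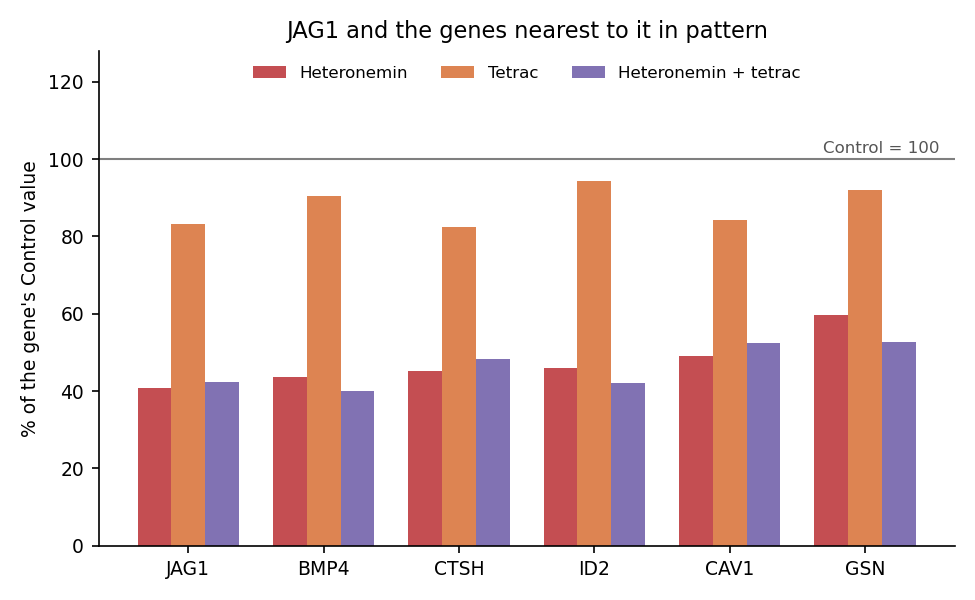
Bars give the group value of JAG1 and of the 5 genes nearest to it in pattern as a percentage of each gene's Control value, after heteronemin, tetrac and the combination; the line at 100 is Control, and there are no error bars because the tables hold 1 value per group. JAG1 is at 40.7%, 83.2% and 42.4%, and the other 5 genes at 43.5% to 59.7% after heteronemin alone.

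Over the same 250 bases, their promoters held 25 (BMP4), 32 (CTSH), 29 (ID2), 18 (CAV1) and 33 (GSN) CG dinucleotides, against 17 in that of JAG1. BMP4 had 1 match to TGGGAA and 1 to CAGAC, ID2 and CTSH had 1 match each to CANNTG, and CAV1 and GSN had 0 to the 4 motifs, as JAG1 did.

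The cells carried the epithelial markers of their label. Of 13 listed epithelial markers 8 were measured. All 8 were above the floor in the 4 groups, from 121.1 (CLDN3, combination) to 1814 (EPCAM, Control). By the authors' p, CDH1 was lower and CLDN3 higher after heteronemin. Among genes with a Control value of 100 or more, 30.6% were lower and 7.29% higher there. CLDN7 was higher after the combination, where 9.33% of genes at that level were, and 0 of the 8 were called after tetrac. Of 14 measured markers of endothelial, blood and stromal cells, 9 were at the floor in Control, and TEK was at the floor in all 4 groups. Their summed signal was 847.2 with heteronemin, 620.2 with tetrac and 704.3 with both, against 500.2 in Control. Over the whole panel, 70 genes were at the floor with heteronemin, 61 with tetrac and 90 with both, against 279 in Control. By the authors' p, CD34 and COL1A1, 2 of 13 tested markers, were higher after heteronemin, where 11.2% of all tested genes were, and 0 were called after tetrac or the combination. The endothelial marker PECAM1, from a cell type that also makes JAG1, was at 39.33, 33 and 40.62, against 33.34 in Control. Other endothelial markers rose from the floor of 33 in Control. KDR was at 53.86, 45.18 and 41.59, TIE1 at 57.21, 43.51 and 42.67, and EMCN at 46.32, 41.7 and 44.2. None of these endothelial genes was called. The part of the 14 non-epithelial markers in the JAG1 values was not tested. Fewer JAG1-bearing cells and less JAG1 RNA per cell cannot be told apart in bulk RNA.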

How the data were processed

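RNA of 12 HCT-116 samples, 3 in each of 4 groups, was extracted with TRIzol and counted with the nCounter PanCancer Progression panel, per the labels' protocols. The authors normalized raw counts with nSolver 4.0, using a positive control factor per sample and a biological normalization, per the series' design text. They deposited 3 tables of 740 endogenous and 30 housekeeping genes. The deposited signal is 1 value per group, with the same Control column in all tables; the kind of mean is not given. The deposited fold, a signed score, equals the quotient of the 2 signals within 0.00511. The deposited p-value has 2 decimals and is empty where both signals are at the floor of 33; its test is not given in the sources used here. No replicate values were analysed, so p-values measure only a spread between samples that may be technical.

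Log2 ratios were computed from the signals with no pseudocount, and calls are the authors' p under 0.05 without adjustment. Benjamini-Hochberg adjustment used the largest p that rounds to the printed one. The panel sum of the signal was 280484 with heteronemin, 306898 with tetrac and 297671 with both, against 333810 in Control, and the housekeeping geometric mean was 296.1, 299.5 and 297.5, against 299.6.

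The gene, the lists and the tests were chosen with earlier results of these data known. Named genes are JAG1, measured Notch list genes, called genes of the upstream list, the 5 nearest patterns, the 2 nearest genes above and below in Control level, the 3 lowest and 3 highest of the 50 neighbours, and up to 10 genes as low as JAG1. STAT3, RAC1, SLC2A1 and the named marker genes were added after their values were seen, as ends of ranges, as a called gene or as called, extreme or endothelial markers. All 38 genes the rules name have current symbols. A gene that the rules name is not reported here. Alternatives were the scale, the floor, the neighbours, the threshold and the distance. The code for neighbour ranks and distances was run on simulated ratios with a known answer. That run checks the code only, not the ranks or distances reported. Python 3.11.15, numpy 2.4.6, pandas 2.3.3 and matplotlib 3.10.9 were used.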

Additional observations from a re-analysis of the deposited data

How the results depend on the processing

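No paired analysis was possible because the tables hold 1 value per group, and for the same reason no sample could be left out in turn. In every planned scaling the JAG1 ratios to Control stayed negative. Scaled to the housekeeping genes, they were -1.28 with heteronemin, -0.26 with tetrac and -1.23 with both, with 0.0498 for the combination over heteronemin, -0.96 over tetrac and 0.31 above the sum of single ratios. Divided by the panel sum, whose log2 ratio to Control was -0.25, -0.12 and -0.17 in that order, they were -1.04, -0.14, -1.07, -0.0288, -0.93 and 0.12. Centred on genes above the floor in all groups they were -1.22, -0.20, -1.18, 0.0428, -0.98 and 0.24. With the floor subtracted they were -1.39, -0.28, -1.33, 0.06, -1.05 and 0.34. The percentile of JAG1 among genes of similar level was 0 after heteronemin in all 5 settings. After tetrac it was 2 with 100 neighbours or endogenous genes only and 4 by mean level. After the combination it was 5 with 20 neighbours and 1 with 100. Of the 3 Notch genes called in each comparison with heteronemin, 0 passed Benjamini-Hochberg adjustment on the largest p that rounding allows. Rounding fixed that outcome, because the smallest value so adjusted over the whole panel was 0.0859 with heteronemin and 0.0715 with both. No panel gene could pass 0.05, so this setting says nothing about the Notch genes. After the combination, 1 of the 3 passed the authors' p under 0.01. The 5 genes nearest in pattern were the same 5 with centred values and with no minimum level. Depth is unknown, and ratios against a value at the floor, such as those of DLL4, depend on where that floor was set.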
